A study of Arabidopsis thaliana with 4 samples.

Results

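The 10 genes described here act in the uptake, movement and saving of phosphate in Arabidopsis thaliana. They are SPX1, SPX2 and SPX3, the transporters PHT1-1, PHT1-2, PHT1-3 and PHT1-4, the exporter PHO1, and the sulfolipid enzymes SQD1 and SQD2. They were taken by gene identifier and are 10 of the 32538 genes in the expression table. Messenger RNA was sequenced from hypocotyls, the stem below the seed leaves, of seedlings left to germinate for 24 hours on MS medium of reduced strength and then kept at 22 °C without light for 5 days, with an age given as 5 days. There were 2 libraries from the wild type, Col-0, and 2 from shr-2, which carries a mutant allele of SHORT-ROOT (SHR) and is recorded in the same Col-0 ecotype. The design text calls them biological duplicates. SHR is a GRAS transcription factor that acts with SCARECROW (SCR) in the patterning of ground tissue and endodermis, and the comparison asks how the mutant differs from the wild type in this organ. Groups follow the titles. A genotype field gives the mutant libraries as an SCL28 overexpressor and a tissue field gives root tip for all 4 libraries. The sources used here do not give how many seedlings were pooled for a library.

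Plants take up phosphate through PHT1 transporters of the plasma membrane and release it from cells into the xylem stream through PHO1. When phosphate is short, the transcription factor PHR1 binds the promoter element P1BS and turns on a set of starvation genes, among them SPX genes, PHT1 genes, acid phosphatases and enzymes that replace phospholipids with lipids free of phosphorus. SPX proteins bind inositol pyrophosphates when phosphate is plentiful and then hold PHR1 back, so that they act both as markers of the response and as its brake.

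Values are FPKM, fragment numbers divided by transcript length and by library size, so levels can be compared between genes. Low values step by an estimated 0.0427 to 0.0446 FPKM for 1 fragment in a transcript of 1 kb, which corresponds to an estimated 22433847 to 23420900 fragments a library. Libraries of the same genotype correlated across genes at r = 0.984 and 0.981, against 0.900 to 0.911 between genotypes. SHR stood at 28.4 and 28.9 FPKM in Col-0 and at 2.57 and 3.45 FPKM in shr-2, and SCL28 at 5.00 and 5.24 FPKM against 5.81 and 5.57 FPKM, a difference that was not called (limma, adjusted p = 0.412). SCR stood at 23.3 and 24.8 FPKM against 6.91 and 8.84 FPKM. No library exceeded 0.345 FPKM for any of 12 genes that mark meristem, cap and hairs of the root. These levels go with the titles and the growth protocol. All 9 markers of the endodermis were lower in the mutant, with summed levels of 573 and 694 FPKM in Col-0 and 20.7 and 22.7 FPKM in shr-2, and 7 of the 9 passed the level filter through Col-0 alone. Markers of seed leaves and leaves summed to 113 and 121 FPKM in Col-0 and 140 and 146 FPKM in shr-2, with 3 of 5 called higher and 1 lower. The 6 xylem markers summed to 259.8 to 290.5 FPKM over all libraries, with 2 called higher and 0 lower. The 5 phloem markers summed to 155 to 197 FPKM, with 0 called higher and 2 lower. The 5 markers of seed storage reached at most 0.466 FPKM. Over all genes tested, 13.9% were called higher and 13.7% lower. The part of these tissue differences in the results below was not tested, and in such bulk samples fewer cells of a type and less RNA per cell cannot be told apart.

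Of the 10 genes, 9 reached a mean of 1 FPKM over the 4 libraries and were tested, and PHT1-3 was listed at 0 in every library. Among the 9, SPX1, SPX2, SPX3, PHT1-2, PHT1-4, PHO1, SQD1 and SQD2 were higher in shr-2, and PHT1-1 was lower. A call means a Benjamini-Hochberg adjusted p under 0.05 in limma, fitted on log2(FPKM + 1) over all 19920 genes tested, of which 27.6% were called. The higher calls were 13.9% and the lower calls 13.7%. SPX3 and PHT1-2 had means under 1 FPKM in Col-0 and passed the level filter through the mutant, which fixed their direction once tested. The other 7 had a mean of at least 1 FPKM in both genotypes, and of these 6 were called higher and 1 lower. The log2 fold changes of these 6 ran from 0.64 to 1.57, and that of PHT1-1 was -1.77. The median log2 fold change of the 9, which counts SPX3 and PHT1-2, was 0.95, and that of all genes tested was 0.01. In the authors' deposited table the same 8 genes were called higher and PHT1-1 lower. Calls made up 24.8% of the 21844 tests completed in the authors' deposited table, 12.6% for a higher and 12.2% for a lower level in shr-2. That table rests on the same libraries and is not a second measurement.

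**Figure D1:**
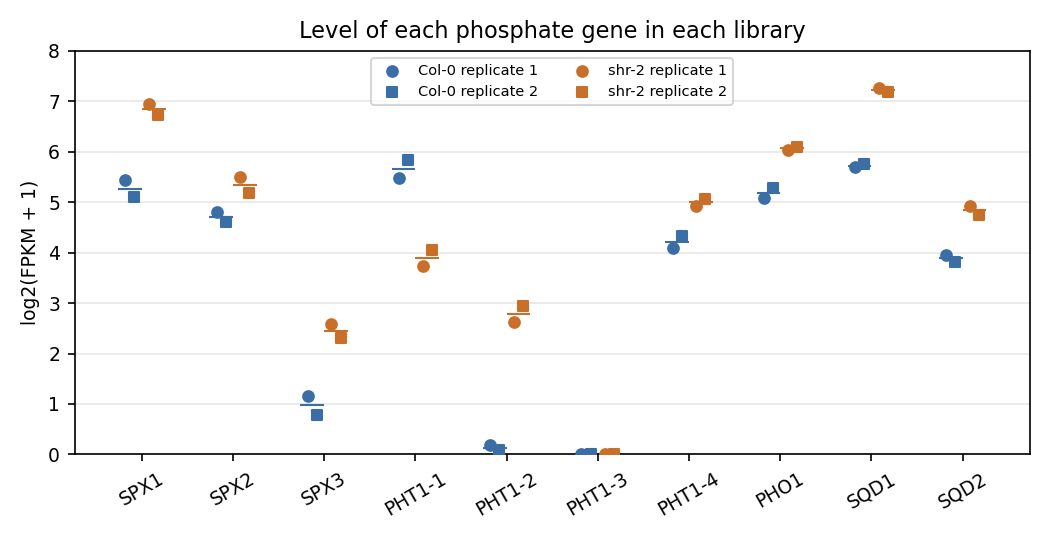
Level of each of the 10 phosphate genes as log2(FPKM + 1), with 1 point for each library and a short line at the mean of the 2 libraries of a genotype. In the 9 genes detected, both libraries of one genotype lie above both of the other, and only PHT1-1 is lower in shr-2. Of all genes tested, 66.2% show such non-overlap, and SPX3 and PHT1-2 passed the level filter through shr-2 alone.

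The SPX genes encode small proteins made of little more than an SPX domain, the module that reads inositol pyrophosphates. SPX1 (AT5G20150, chr5:6802282-6803655 in TAIR10.1, 3 exons) read 42.3 and 33.2 FPKM in the Col-0 libraries and 122 and 105 FPKM in the shr-2 libraries. Both mutant libraries lay far above both wild-type ones. The mean went from 37.7 ± 6.42 FPKM (SD, n = 2) to 114 ± 12.2 FPKM (n = 2), a log2 fold change of 1.57 (SE 0.15; limma, adjusted p = 0.00292).

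SPX3 (AT2G45130, chr2:18606410-18607853, 3 exons) was the lowest of the 3 and had the largest ratio among them. Its values were 1.24 and 0.729 FPKM in Col-0, an estimated 26.5 and 15.5 fragments, and 4.98 and 3.98 FPKM in shr-2, an estimated 103 and 81.8 fragments. The mean of 0.983 ± 0.359 FPKM (n = 2) thus compares with 4.48 ± 0.706 FPKM (n = 2), 4.56 times as much. On the log2 scale of FPKM + 1, which compresses changes of weakly expressed genes, SPX3 changed by 1.47 (SE 0.19), and with a pseudocount of 0.1 FPKM by 2.11. No p is given, since SPX3 passed the level filter through shr-2 alone.

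SPX2 (AT2G26660, chr2:11338752-11340950, 3 exons) changed least. It was at 26.8 and 23.2 FPKM in Col-0 and at 44.4 and 35.1 FPKM in shr-2, and the genotypes did not overlap. Non-overlap alone is common here, since 66.2% of the genes tested showed it. The log2 fold change was 0.64 (SE 0.15; limma, adjusted p = 0.0321), and the call was lost without Col-0 replicate 1, Col-0 replicate 2 or shr-2 replicate 1 (adjusted p 0.0992, 0.162 and 0.103) and when weakly expressed genes were kept in the fit (0.0522). The coding sequences of SPX1 and SPX2 are 67.35% identical, those of SPX1 and SPX3 60.73% and those of SPX2 and SPX3 57.67%. None of the 3 transcripts has a stretch of 50 bases in common with another annotated gene.

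PHT1 proteins are proton-coupled phosphate transporters of the plasma membrane. PHT1-1, PHT1-3 and PHT1-2 lie next to each other on chromosome 5. PHT1-1 (AT5G43350, chr5:17399769-17402158, minus strand) is 7.37 kb from PHT1-3 (AT5G43360, chr5:17409524-17411214, plus strand), which is 4.48 kb from PHT1-2 (AT5G43370, chr5:17415698-17417972, plus strand). PHT1-1 and PHT1-2 are close to identical within the coding sequence, at 97.71% over 1575 bases each, and differ ahead of the gene. The 250 bases before the 2 starts matched at 52.5%, against 50.2% to 53.8% in the other pairs among PHT1-1 to PHT1-4. The model of PHT1-3 has 1566 bases, all coding, and so begins at the start codon. Its 250 bases are thus not placed like those of the other genes, which limits the pairs with PHT1-3. The stretches of PHT1-1 and PHT1-2 are shown because these genes moved in opposite directions. Capitals mark the P1BS motif GNATATNC, in which N is any base. These sequences and those below were read 5′ to 3′ on the strand of the gene from RefSeq's TAIR10.1 assembly, at chr5:17402159-17402408 and chr5:17415448-17415697.
PHT1-1: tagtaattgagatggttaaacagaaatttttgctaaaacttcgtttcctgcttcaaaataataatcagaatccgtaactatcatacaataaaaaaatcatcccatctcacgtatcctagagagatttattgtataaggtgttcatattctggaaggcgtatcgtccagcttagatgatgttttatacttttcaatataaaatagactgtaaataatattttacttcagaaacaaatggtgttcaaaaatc
PHT1-2: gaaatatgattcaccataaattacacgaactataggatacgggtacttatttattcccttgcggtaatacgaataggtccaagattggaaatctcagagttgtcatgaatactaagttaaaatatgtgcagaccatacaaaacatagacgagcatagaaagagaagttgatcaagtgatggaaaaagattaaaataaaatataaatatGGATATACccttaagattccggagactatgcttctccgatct

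PHT1-1 was among the most abundant of the 10 transcripts in the wild type and fell in the mutant. It stood at 43.7 and 56.1 FPKM in Col-0 and at 12.3 and 15.5 FPKM in shr-2, so that the lower wild-type library was well above the higher mutant one. The mean of 49.9 ± 8.75 FPKM (n = 2) compares with 13.9 ± 2.26 FPKM (n = 2), a log2 fold change of -1.77 (SE 0.17; limma, adjusted p = 0.0029). PHT1-2 moved the other way. It was nearly silent in Col-0, at 0.132 and 0.0635 FPKM, an estimated 5.76 and 2.75 fragments, and read 5.17 and 6.71 FPKM in shr-2, an estimated 219 and 281 fragments. On the scale of FPKM + 1 it changed by 2.65 (SE 0.16), and with pseudocounts of 0.5 and 0.1 FPKM by 3.42 and 4.94. That was the largest change of the 9, but PHT1-2 passed the level filter through shr-2 alone, so no p is given. The ratio of its means was 60.9, which is imprecise because so few fragments stand behind the wild-type values.

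Of the 50-base stretches of the PHT1-1 transcript, 41.9% occur in that of PHT1-2, and 45.2% the other way, with a longest identical run of 404 bases. Reads from these stretches cannot be placed by sequence alone, and the sources used here do not say how the authors' counting divided them. In the summed level of the 3 copies PHT1-2 had a share of 0.300% and 0.113% in Col-0 and of 29.5% and 30.2% in shr-2. The summed level depends little on the division, since the transcripts of PHT1-1 and PHT1-2 are 2012 and 1869 bases long. It was 43.9 and 56.2 FPKM in Col-0 and 17.5 and 22.3 FPKM in shr-2. The sum was thus lower in both mutant libraries, by 1.29 on the log2 scale, with p = 0.333 in a 2-sided exact permutation test, the smallest that 2 libraries against 2 allow. With the copies merged to a single row of the limma fit the sum was called lower, at a log2 fold change of -1.29 (SE 0.17; limma, adjusted p = 0.00683). PHT1-3, at 0 FPKM throughout, has 1.32% of its 50-base stretches in another gene.

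**Figure D2:**
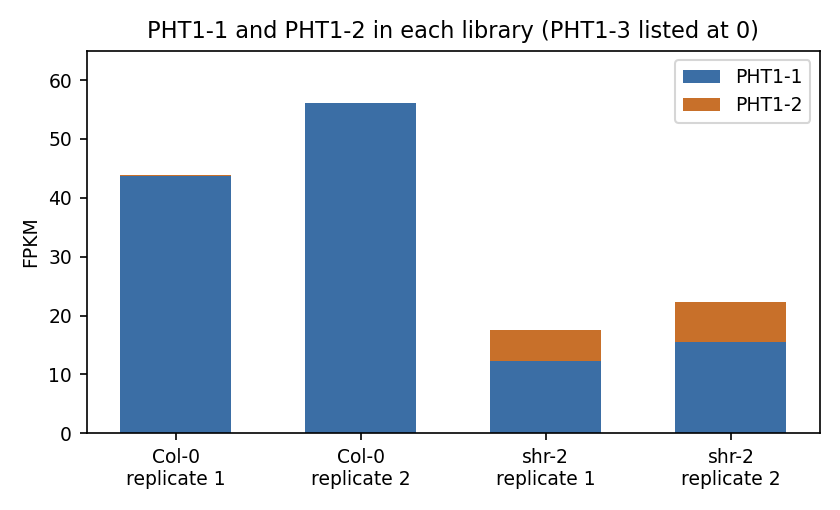
FPKM of PHT1-1 (lower part of each bar) and PHT1-2 (upper part) in each of the 4 libraries. The summed height falls from 43.9 and 56.2 FPKM in Col-0 to 17.5 and 22.3 FPKM in shr-2, while the PHT1-2 part is visible in the shr-2 libraries.

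PHT1-4 (AT2G38940, chr2:16257157-16260253, 2 exons), a relative at another site with 71.03% to 71.33% coding identity to the 3 clustered genes, rose modestly. It was at 16.1 and 19.1 FPKM in Col-0 and at 29.5 and 32.6 FPKM in shr-2, with no overlap. The log2 fold change was 0.79 (SE 0.12; limma, adjusted p = 0.00984), and the call was lost without Col-0 replicate 1 (adjusted p = 0.0647). In shr-2, PHT1-4 stood above PHT1-1, whereas in Col-0 it was the other way round, and in neither genotype did the libraries of the 2 genes overlap. The remaining PHT1 genes, PHT1-5 to PHT1-9, did not exceed 0.202 FPKM in any library.

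PHO1 (AT3G23430, chr3:8387398-8393467, minus strand, 15 exons) encodes a phosphate exporter that in roots is known from the cells of the stele, where it loads the xylem. It read 32.8 and 37.8 FPKM in Col-0 and 64.7 and 67.2 FPKM in shr-2. All mutant values were above all wild-type values, and the means of 35.3 ± 3.53 and 66.0 ± 1.82 FPKM (n = 2 each) gave a log2 fold change of 0.89 (SE 0.11; limma, adjusted p = 0.00485). Beside it the 6 xylem markers summed to 259.8 and 279 FPKM in Col-0 and to 290.5 and 282 FPKM in shr-2, and 2 of them, the cellulose synthases IRX3 and IRX1 of the secondary wall, were called higher. IRX3 was at 8.42 and 9.65 against 13.5 and 13.7 FPKM (limma, adjusted p = 0.0211) and IRX1 at 13.6 and 14.7 against 18.2 and 18.3 FPKM (limma, adjusted p = 0.0486). The authors' deposited table called IRX3 but not IRX1 (q = 0.0431 and 0.110). The other 4 markers were not called, with log2 fold changes of 0.14 for XCP1, 0.005 for VND7, -0.01 for XCP2 and -0.08 for IRX5. The part of the xylem markers in the PHO1 result was not tested.

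SQD1 and SQD2 carry out the last 2 steps of sulfolipid synthesis in the plastid. SQD1 makes UDP-sulfoquinovose and SQD2 transfers the sulfoquinovose to diacylglycerol. SQD1 (AT4G33030, chr4:15935373-15937833, 3 exons) had the highest mean of the 10 in both genotypes, with a range in Col-0 that overlapped that of PHT1-1. Its values were 51.1 and 52.8 FPKM in Col-0 and 153 and 145 FPKM in shr-2, a log2 fold change of 1.501 (SE 0.09; limma, adjusted p = 0.000902). SQD2 (AT5G01220, chr5:86543-90117, minus strand, 12 exons) stood at 14.5 and 13.1 FPKM in Col-0 and at 29.5 and 25.9 FPKM in shr-2. Its libraries did not overlap between genotypes, and its log2 fold change was 0.95 (SE 0.11; limma, adjusted p = 0.00464). UGP3 (AT3G56040), the plastid pyrophosphorylase that supplies UDP-glucose to SQD1, moved in the same direction, from 19.2 and 20.4 FPKM to 35.6 and 36.9 FPKM (limma, log2 fold change 0.84, adjusted p = 0.00372). Its transcript overlaps 2 gene models on the opposite strand, so its reads can be told apart from theirs only if the counting used strand.

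**Figure D3:**
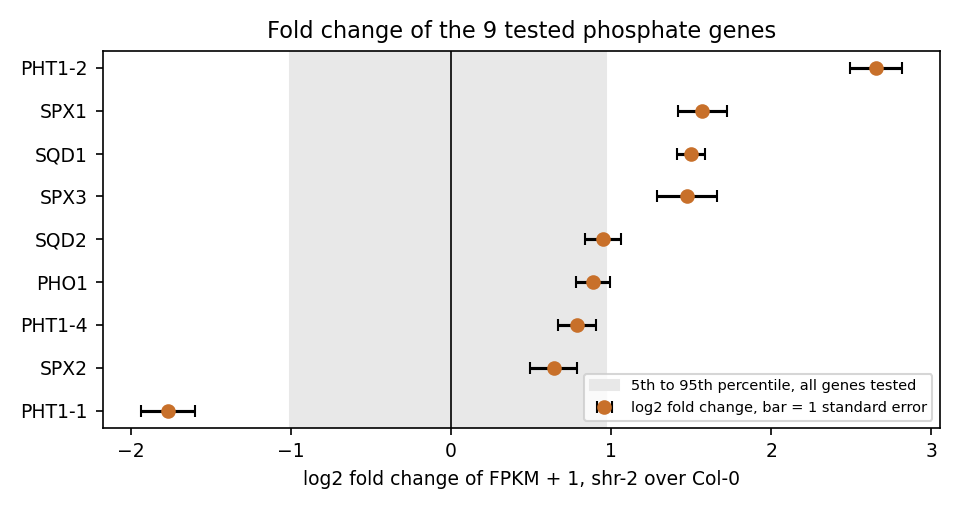
Log2 fold change of FPKM + 1 in shr-2 over Col-0 for the 9 tested phosphate genes, with bars of 1 standard error, over a grey band from -1.01 to 0.97 that holds the values of all genes tested between their 5th and 95th percentiles. PHT1-2, SPX1, SQD1 and SPX3 lie above the band at 2.65 to 1.47, PHT1-1 lies below it at -1.77, and SQD2, PHO1, PHT1-4 and SPX2 lie inside it. PHT1-2 and SPX3 passed the level filter through shr-2 alone.

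By level, the order in Col-0 was SQD1, PHT1-1, SPX1, PHO1, SPX2, PHT1-4, SQD2, SPX3, PHT1-2 and PHT1-3. The ranges of SQD1 and PHT1-1 overlapped, as did those of SPX1 and PHO1, and the ranges of all other neighbours were apart. In shr-2 the order was SQD1, SPX1, PHO1, SPX2, PHT1-4, SQD2, PHT1-1, PHT1-2, SPX3 and PHT1-3, with no overlap between neighbours. PHT1-1 thus went from the second place to the seventh. With 2 libraries a genotype such ranges are a coarse guide to error.

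A further 88 genes of phosphate biology in 7 lists were read in the same fit, and 64 of them were tested. Of the 64, 18 (28.1%) were higher, 12 (18.8%) were lower and 34 did not pass, beside 13.9% higher and 13.7% lower over all genes tested. Their median log2 fold change was 0.06. IPS1, PEPC1 and LPR1 passed the level filter through a single genotype, which fixed their direction once tested. The other 61 had a mean of at least 1 FPKM in both genotypes, and 16 of them were called higher and 11 lower. Of the 30 calls, 25 were also made in the authors' deposited table and 5 were not, namely PHT4-3, PHT4-4, PAP12, DGD1 and LPR1. The count called higher was 13 without shr-2 replicate 1 and 9 without any other of the libraries, and the count called lower ranged from 6 to 9 over the 4 cases.

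**Figure D4:**
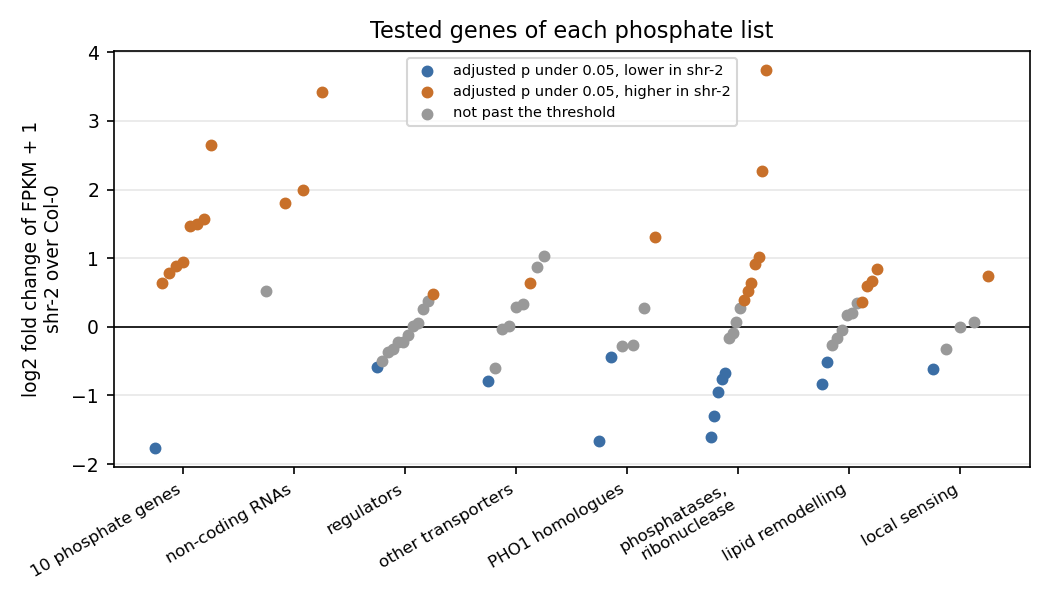
Log2 fold change of FPKM + 1 in shr-2 over Col-0 for each tested gene of the 10 phosphate genes and of the 7 further lists, coloured by the limma call. The non-coding RNAs IPS1 and AT4 and the phosphatases PS2 and PEPC1 lie at 1.797 to 3.75, while the regulators lie between -0.58 and 0.47. IPS1 and PEPC1 passed the level filter through shr-2 alone. PHO1-H8, PAP7 and PAP8 lie at -1.67, -1.60 and -1.29, and the median of the 64 further genes tested is 0.06.

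Of 9 non-coding RNAs of the starvation response, 4 were tested and 3 of these (75%) were called higher, beside 13.9% of all genes tested. IPS1 was among them only through its level in shr-2. IPS1 (AT3G09922) and AT4 (AT5G03545) are target mimics, which bind the microRNA miR399 without being cut and so shield PHO2. IPS1 went from 0.793 and 0.977 FPKM in Col-0 to 21.1 and 17.3 FPKM in shr-2, a log2 fold change of 3.42 with an SE of 0.14, given with no p for that reason. AT4 was the most abundant transcript of the phosphate lists, at 433 and 434 FPKM in Col-0 and 1436 and 1585 FPKM in shr-2 (limma, log2 fold change 1.797, adjusted p = 0.00106). MIR827 (AT3G59884), the precursor of a microRNA directed at NLA, read 18.5 and 48.9 FPKM in Col-0 and 135 and 113 FPKM in shr-2 (limma, log2 fold change 1.995, adjusted p = 0.0291). The Col-0 libraries lie far apart, and the log2 fold change was 1.32 without Col-0 replicate 1 and 2.67 without Col-0 replicate 2. The MIR827 model is only 177 bases long, so each fragment weighs more there. Leaving out either mutant library ended the MIR827 call (limma, adjusted p = 0.0829 and 0.0651), as did keeping weakly expressed genes (0.0565). The MIR399 precursors were listed at 0 in every library, except MIR399B, named after its values were seen, which was at 10.5 and 0 FPKM in Col-0 and at 22.7 and 0 FPKM in shr-2 and was tested but not called.

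Of 12 regulators tested, PHO2 (AT2G33770), an E2 ubiquitin conjugase that lowers PHO1 and PHT1 protein, was higher, NLA (AT1G02860), a ubiquitin ligase that removes PHT1 proteins, was lower, and 10 did not pass. That is 16.7% called, beside 27.6% of all genes tested, a difference that was not tested. In 9 of the 12 the genotypes did not overlap, beside 66.2% of all genes tested. PHO2 read 43.4 and 45.0 FPKM in Col-0 and 60.3 and 63.4 FPKM in shr-2 (limma, log2 fold change 0.47, adjusted p = 0.017). NLA read 33.5 and 32.5 FPKM in Col-0 and 23.7 and 19.99 FPKM in shr-2 (limma, log2 fold change -0.58, adjusted p = 0.0201), and it overlaps 2 models on the opposite strand. The PHO2 call did not survive the loss of any 1 library (adjusted p 0.0595 to 0.102) and the NLA call without either Col-0 library or shr-2 replicate 2 (0.0822 to 0.117). PHR1 (AT4G28610) and SPX4 (AT5G15330), named after their values were seen because of their place beside the SPX genes, did not pass the test. PHR1 was at 29.8 and 30.1 FPKM in Col-0 and at 28.4 and 32.0 FPKM in shr-2, a log2 fold change of 0.01 (SE 0.10; limma, adjusted p = 0.958). SPX4 was at 16.3 and 16.2 FPKM against 15.9 and 17.96 FPKM (limma, log2 fold change 0.05, adjusted p = 0.734).

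Phosphatases and the ribonuclease RNS1 were divided. Of 16 tested, 7 (43.8%) were higher, 5 (31.2%) were lower and 4 did not pass, beside 13.9% higher and 13.7% lower over all genes tested. The pyrophosphatase PS2 (AT1G73010) went from 1.32 and 1.03 FPKM to 29.95 and 26.5 FPKM, a log2 fold change of 3.75 (SE 0.13; limma, adjusted p = 0.000216). PEPC1 (AT1G17710), which frees phosphate from phosphocholine and phosphoethanolamine, went from 0.899 and 0.687 FPKM to 7.19 and 8.05 FPKM, a log2 fold change of 2.27, and passed the level filter through shr-2 alone. In contrast the purple acid phosphatases PAP8 (AT2G01890) and PAP7 (AT2G01880) were lower, at 72.7 and 76.8 against 30.4 and 29.4 FPKM for PAP8 (limma, log2 fold change -1.29, adjusted p = 0.00125) and at 8.89 and 8.25 against 1.97 and 2.33 FPKM for PAP7 (limma, log2 fold change -1.60, adjusted p = 0.00165).

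Relatives of PHO1 also went both ways, with 1 of 6 tested higher (16.7%), 2 lower (33.3%) and 3 not past the threshold. Over all genes tested the shares were 13.9% and 13.7%. PHO1-H1 (AT1G68740), the closest known in function to PHO1, went from 8.92 and 8.67 FPKM to 23.9 and 22.4 FPKM (limma, log2 fold change 1.30, adjusted p = 0.00144). PHO1-H8 (AT1G35350) went from 7.67 and 7.92 FPKM to 1.86 and 1.67 FPKM (limma, log2 fold change -1.67, adjusted p = 0.00123). PHO1-H7 (AT1G26730) was at 7.11 and 7.68 FPKM against 5.51 and 4.91 FPKM (limma, log2 fold change -0.44, adjusted p = 0.0441). That call did not hold with any library left out (adjusted p 0.0927 to 0.198), with weakly expressed genes kept (0.0694) or with a higher filter (0.0507). PHO1-H7 and PHO1-H8 share 2.03% and 2.05% of their 50-base stretches with each other.

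The other phosphate transporters showed 1 gene higher, 1 lower and 7 not past the threshold among 9 tested. That is 22.2% called, beside 27.6% of all genes tested. The authors' deposited table instead called PHT2-1 and PHT4-1 higher and PHT3-3 lower, with q = 0.000587, 0.000587 and 0.0132, and called neither PHT4-4 nor PHT4-3, with q = 0.269 and 0.286. In limma these 3 missed the threshold, with log2 fold changes of 1.03 for PHT2-1 (adjusted p = 0.0548), 0.87 for PHT4-1 (0.0509) and -0.60 for PHT3-3 (0.063), and they are named after their values were seen. PHT4-4 (AT4G00370), a transporter of the plastid envelope, was at 27.8 and 31.2 FPKM in Col-0 and 43.0 and 49.9 FPKM in shr-2 (limma, log2 fold change 0.64, adjusted p = 0.0173), and PHT4-3 (AT3G46980) at 6.77 and 8.66 against 3.82 and 4.23 FPKM (limma, log2 fold change -0.79, adjusted p = 0.0174). Both overlap neighbouring gene models, PHT4-3 on its own strand. Each call was lost with some library left out, at adjusted p up to 0.106 for PHT4-4 and 0.0864 for PHT4-3.

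Of 12 tested genes that exchange phospholipids for galactolipids or recycle phospholipids, 4 (33.3%) were higher, 2 (16.7%) were lower and 6 did not pass. Over all genes tested 13.9% were called higher and 13.7% lower. Besides UGP3 the higher genes included the monogalactosyldiacylglycerol synthases MGD1 (AT4G31780) and MGD3 (AT2G11810). MGD1 was at 17.97 and 19.5 against 29.0 and 28.7 FPKM (limma, log2 fold change 0.60, adjusted p = 0.0104). MGD3 was at 1.27 and 1.17 against 2.59 and 2.42 FPKM (limma, log2 fold change 0.66, adjusted p = 0.0196). With any 1 library removed MGD1 was not called (adjusted p 0.0519 to 0.0756) and neither was MGD3 without either Col-0 library or shr-2 replicate 1 (0.0507 to 0.0807). GDPD2 (AT5G41080), a glycerophosphodiester phosphodiesterase, was lower, at 29.0 and 25.3 against 14.7 and 14.9 FPKM (limma, log2 fold change -0.83, adjusted p = 0.00571). MGD1 overlaps a neighbour on its own strand by 15 bases. Of 5 genes of local phosphate sensing in the root, 1 (20%) was higher, 1 (20%) was lower and 3 did not pass. The multicopper oxidase LPR2 (AT1G71040) was higher, at 12.6 and 14.0 against 20.5 and 25.3 FPKM (limma, log2 fold change 0.74, adjusted p = 0.0162). Its relative LPR1 (AT1G23010) was lower, at 1.90 and 2.11 against 0.766 and 1.18 FPKM (log2 fold change -0.62), having passed the level filter through Col-0 alone. LPR2 did not pass without either Col-0 library or shr-2 replicate 2 (adjusted p 0.0613 to 0.107), and LPR1 lost its call under 6 alternatives (0.0505 to 0.159).

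The starts of the genes were searched for P1BS, the 8-letter element GNATATNC, whose pattern reads the same on both strands. In a window from 250 bases before the annotated start to 50 bases after it, 5 of the 10 genes held a match, namely SPX1, SPX3, PHT1-2, PHT1-4 and SQD1, and 6.24% of all 32536 windows did. Within it only SPX3 and PHT1-2 held a whole match before the start. The matches there of SPX1 and SQD1 lay inside the transcript, at 23 and 15, and that of PHT1-4, at -7, ran across the start. In the 1000 bases before the start, a window chosen after the first had been read, 6 of the 10 held a match and 20.1% of all windows did. In the short window a match was found in 31.8% of the 88 further phosphate genes. Among all genes called higher in shr-2 the share was 6.41%, and among those called lower 6.79%. SPX2 and PHO1 held none in either window. A match is a string of letters and does not show that the site is bound.

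Each match in the members is shown with 11 bases on either side and the motif in capitals, since PHT1-1 and PHT1-2, which moved in opposite directions, are among them.
SPX1, chr5:6801536-6801565, first base of the motif at -735: tttcctatcaaGAATATTCcatggaatcca
SPX1, chr5:6802293-6802322, at 23 inside the transcript: cagagaaaaaaGGATATTCtaattagaaac
SPX3, chr2:18606186-18606215, at -213: tattagagaccGAATATGCcagaggatttg
SPX3, chr2:18606309-18606338, at -90: gctaaagctaaGCATATCCgctttcatatt
PHT1-1, chr5:17402908-17402955, minus strand, 2 matches at -786 and -768: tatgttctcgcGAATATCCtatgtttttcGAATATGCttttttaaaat
PHT1-2, chr5:17415118-17415147, at -569: tttatatgattGTATATACcatagattata
PHT1-2, chr5:17415645-17415674, at -42: aatataaatatGGATATACccttaagattc
PHT1-3, chr5:17409120-17409149, at -393: aaataaaatgtGGATATACccttaagattc
PHT1-4, chr2:16257139-16257168, at -7: gttgttcggaaGAATATACcgaagtagcaa
SQD1, chr4:15935376-15935405, at 15 inside the transcript: ggaataagtaaGAATATGCtttgggcatat
SQD2, chr5:90439-90468, minus strand, at -340: ttatgtgaagcGAATATTCattggaataga

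Positions count from 1 at the first base of the annotated gene, with negative values before it. The transcript that fell, PHT1-1, had its 2 matches at -786 and -768, and PHT1-2 had its 2 at -569 and -42. PHT1-3, listed at 0 FPKM, shared the motif letters GGATATAC and the 11 bases after them with PHT1-2, at -393 in PHT1-3. The transcript model of PHT1-3 has 1566 bases, all coding, so its annotated start is the start codon. That of PHT1-2 has 1869 bases, of which 1575 are coding. The distances -393 and -42 are thus counted from unlike starts and cannot be compared. SQD2, SPX2 and PHO1 rose without a match in the short window.

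**Figure D5:**
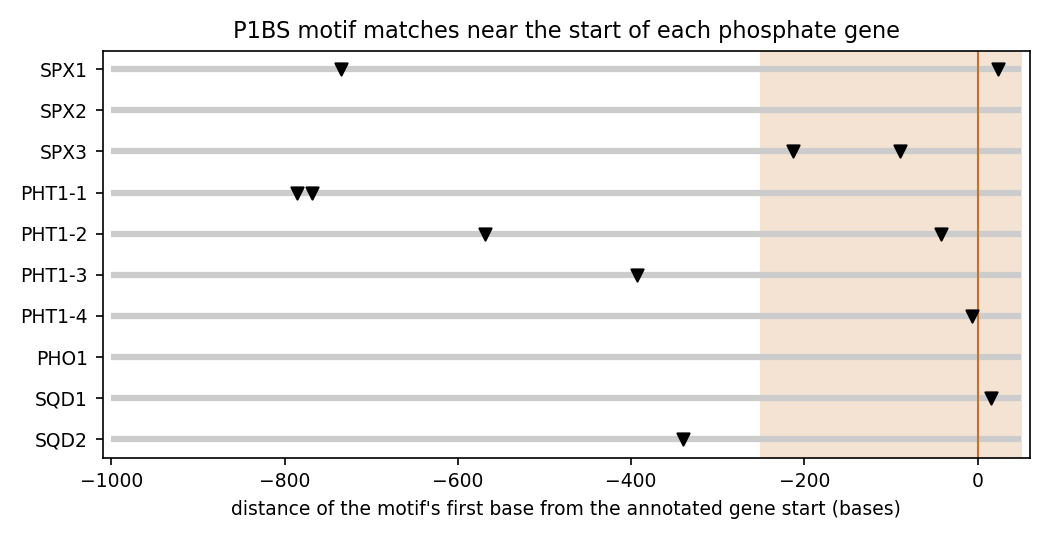
Position of each P1BS match (triangles, first base of the motif) relative to the annotated start of the 10 phosphate genes, from 1000 bases before to 50 bases after, with the short window shaded. Matches of SPX1, SPX3, PHT1-2, PHT1-4 and SQD1 fall in the shaded window, while those of PHT1-1, PHT1-3 and SQD2 lie only farther from the start.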

How the data were processed

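Expression was measured by stranded poly(A) RNA sequencing (TruSeq kit, per the labels' protocols) in 2 Col-0 and 2 shr-2 libraries. The submitters' processing notes name TopHat2 2.0.13, Cuffdiff 2.2.0, CASAVA 1.8.2 and the TAIR10 genome, and a source column in the deposited file names Araport11. For every gene and library the authors deposited an FPKM value. A second table deposited by the authors compares the genotypes by mean FPKM, log2 change, fold (ratio), a test score, p-value and q-value, and its calls were counted as given. The sources used here do not say whether counting used strand. FPKM is relative to each library's own total.

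FPKM was converted to log2(FPKM + 1) with a pseudocount of 1. Every gene whose mean over the libraries reached 1 FPKM, and SHR, entered one limma fit (limma 3.58.1, R 4.3.3, mean-variance trend, 2-sided, Benjamini-Hochberg adjusted p under 0.05), with the script tested on simulated data. Errors are SDs over 2 libraries, which cover only the spread between these samples. The 10 genes, the further lists and the tests were chosen with earlier results of these data known. Of 97 entries in the 7 further lists, 88 paired a symbol with its identifier in the annotation and were used. Named were all 10 members, SHR and SCR, and from each further list up to 4 called genes with the smallest adjusted p. SCL28 was added because a label names it.

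Coordinates, transcripts and sequences are from RefSeq's TAIR10.1 annotation and genome, matched by gene identifier, and the authors' loci equal it for all 10 genes. Coding sequences were aligned globally with Biopython 1.88 in place of a planned comparison of proteins. Depth was estimated from FPKM times length in genes with 1 transcript model of 1200 to 3000 bases, as the median of values between 0.025 and 0.06, a window that bounds the estimate.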

Additional observations from a re-analysis of the deposited data

How the results depend on the processing

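All 9 tested phosphate genes kept their direction under every alternative in which they were tested, namely pseudocounts of 0.1 and 0.5 FPKM, no filter on low values, a mean of at least 5 FPKM (which removes SPX3 and PHT1-2), upper quartile scaling, quantile normalization, no trend, the replicate block and leaving out each library. With all 4 libraries in the fit, 6 to 8 of them were called higher and 1 lower under each. The count of 6 is that of the higher filter, and with no filter on low values SPX2 lost its call. As given above, SPX2 and PHT1-4 also lost calls when a library was left out. SPX3 and PHT1-2 passed the main filter through shr-2 alone, which fixed their direction there. Of the further phosphate genes, 18 called higher became 9 to 13 and 12 called lower became 6 to 9 when a library was left out, and all 5503 calls became 2058 to 3843, with fewer samples in the fit. A fit with the replicate block gave 8729 calls over all genes, 8 higher and 1 lower among the 10 genes, and 25 higher and 14 lower among the further phosphate genes. Same-numbered libraries deviated together at r = 0.305, which with 2 pairs does not show a pairing. The summed PHT1 copies, at -1.29 on the log2 scale, ranged from -1.46 to -1.11 when a library was left out and were called with the copies merged in the limma fit (-1.29). With a pseudocount of 0.1 FPKM the log2 fold changes rose to 4.29 for IPS1, 4.48 for PS2 and 3.12 for PEPC1. Matches to P1BS were found in 5 genes in the short window and 6 in the long one, and these were not the same genes. PHT1-4 and SQD1 had a match only in the short window, and PHT1-1, PHT1-3 and SQD2 only in the long one. Of the 8 genes called higher, SPX3 and PHT1-2 included, 5 held a match in the short window and 4 in the long one. Among all genes called higher the shares were 6.41% and 21.6%. In the short window 38.9% of the further phosphate genes called higher held a match, and 20.6% of those tested but not called. In the long window these shares were 38.9% and 47.1%. SPX3 and PHT1-2 rest on few fragments in Col-0, which limits the precision of their ratios.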
